A study of Mus musculus with 9 samples.

Results

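Autophagy and mitophagy transcripts were described in the gastrocnemius, a calf muscle, of exercised mice. The 10 genes were taken by symbol, and all 10 were found among the 23284 rows of the deposited count table. They were Ulk1, Becn1, Atg7, Map1lc3a, Map1lc3b, Gabarapl1, Sqstm1, Bnip3, Ctsl and Tfeb. Messenger RNA was sequenced in 9 libraries from 3-month-old mice of a 129/C57/BL6 background. The 5 control libraries carried the genotype that the labels spell Grpc6afl/fl, a Gprc6a gene flanked by loxP sites. The 4 knockout libraries carried Grpc6afl/fl;Mck-Cre, in which Cre recombinase is driven by the muscle creatine kinase promoter, which works in striated muscle. The product of Gprc6a is an amino acid sensor of the G protein-coupled receptor family. The titles of the knockout libraries name Gprc5a, whereas their descriptions and genotypes name Gprc6a. The comparison asks how exercised muscle differs once fibres lack this receptor gene.

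Both groups were exercised, and rested muscle is not part of the design. No group with Cre alone was included, so effects of Cre and of the deletion cannot be told apart. Whether each library came from its own animal is not stated, and p-values therefore measure the spread between these libraries, which may be technical. Gprc6a had 0 counts in all 9 libraries, which allows up to 0.117 to 0.154 CPM by library, where CPM are counts scaled to a common total, so its counts do not check the labels. Total counts per library ranged from 19522947 to 25608659, and the 10 genes together took 0.136 to 0.194% of them. The summed level of 11 muscle fibre markers was 183610 to 246070 CPM in controls and 194000 to 253670 CPM in knockouts. In bulk muscle, fewer cells of a type and less RNA per cell cannot be told apart.

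Macroautophagy encloses cytoplasm in a double membrane, the autophagosome, which fuses with a lysosome where the contents are degraded. The Ulk1 kinase complex starts the process, the lipid kinase complex that contains Becn1 nucleates the membrane, and the E1-like enzyme Atg7 activates the ubiquitin-like ATG8 proteins (Map1lc3a, Map1lc3b, Gabarapl1) for attachment to lipid. Receptors bring cargo to the ATG8 proteins: Sqstm1 binds ubiquitinated protein and Bnip3 sits on mitochondria, whose removal by this route is called mitophagy. Ctsl is a lysosomal cysteine protease, and Tfeb is a transcription factor that activates genes of autophagy and of lysosomes. In muscle, autophagy is known for its part in mitochondrial turnover and in protein loss during fasting and disuse. FoxO transcription factors are known to induce several of these genes there. Transcript levels do not measure autophagic flux.

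Promoter windows were read from RefSeq on the GRCm38.p6 build, from 250 bases before to 50 bases after each transcription start. Windows were matched for 8 of the 10 genes, all except Map1lc3a and Becn1, and Tfeb had 3 of them. The windows below belong to the pairs Map1lc3b with Sqstm1 and Gabarapl1 with Bnip3, whose levels across libraries are compared further on. Map1lc3b lies at chr8:121590188-121590487 on the plus strand, Sqstm1 at chr11:50210771-50211070 on the minus strand, Gabarapl1 at chr6:129532942-129533241 on the plus strand and Bnip3 at chr7:138909457-138909756 on the minus strand. Each is written 5′ to 3′ along the gene's strand, and capitals mark a match to the antioxidant response element TGACNNNGC in Map1lc3b and to the E-box CACGTG in Bnip3.
Map1lc3b: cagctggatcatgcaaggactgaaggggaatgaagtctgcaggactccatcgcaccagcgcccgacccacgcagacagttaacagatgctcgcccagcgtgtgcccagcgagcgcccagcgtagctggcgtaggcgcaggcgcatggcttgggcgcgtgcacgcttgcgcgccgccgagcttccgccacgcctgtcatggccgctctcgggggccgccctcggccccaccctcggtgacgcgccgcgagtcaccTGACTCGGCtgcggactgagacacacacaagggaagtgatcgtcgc
Sqstm1: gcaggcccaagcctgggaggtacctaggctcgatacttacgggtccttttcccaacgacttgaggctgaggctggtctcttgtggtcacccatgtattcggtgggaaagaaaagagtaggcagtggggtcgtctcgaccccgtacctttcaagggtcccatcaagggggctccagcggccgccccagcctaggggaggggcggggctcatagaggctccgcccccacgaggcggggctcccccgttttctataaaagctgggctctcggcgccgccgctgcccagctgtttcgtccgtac
Gabarapl1: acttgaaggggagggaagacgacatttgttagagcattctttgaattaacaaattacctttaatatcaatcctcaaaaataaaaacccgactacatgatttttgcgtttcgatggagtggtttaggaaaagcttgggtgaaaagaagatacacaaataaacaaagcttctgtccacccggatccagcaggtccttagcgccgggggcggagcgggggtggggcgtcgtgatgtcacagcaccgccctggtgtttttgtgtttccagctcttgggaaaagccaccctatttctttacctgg
Bnip3: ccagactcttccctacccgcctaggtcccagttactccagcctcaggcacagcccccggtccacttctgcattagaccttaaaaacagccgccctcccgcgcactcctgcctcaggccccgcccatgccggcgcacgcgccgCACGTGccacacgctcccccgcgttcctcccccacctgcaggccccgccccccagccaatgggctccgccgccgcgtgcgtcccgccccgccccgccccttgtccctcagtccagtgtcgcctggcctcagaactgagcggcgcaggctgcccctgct

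Both strands of each window were searched, and positions count from the transcription start, with -1 the base before it. The E-box CACGTG, the core of sites bound by Tfeb and its relatives, was found in Bnip3 from -108 to -103, in Atg7 from -132 to -127 and in Ctsl from -236 to -231. It occurred in 7.15% of 32851 promoter windows of the same length. TGACNNNGC, the core of sites bound by Nrf2, was found in Map1lc3b from +5 to +13 and occurred in 12.4% of windows. The CLEAR motif, which extends this E-box by GT before it and AC after it, and the FoxO motif GTAAACA were not found in the windows of these 8 genes, and occurred in 0.326% and 3.65% of all windows. The hypoxia response cores ACGTG and GCGTG occurred in 19.6% and 32.4% of windows. ACGTG was found in the windows of Bnip3, Atg7 and Ctsl, where it overlaps the E-box. GCGTG was found in those of Map1lc3b, Ulk1, Bnip3, Ctsl and Tfeb. Only exact matches to these motifs were searched, so sites that differ from them by a base would be missed. These matches describe the letters of the windows and not occupied sites.

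None of the 10 genes passed the test for a difference between knockout and control muscle. The largest estimates in each direction were log2 fold changes of 0.13 for Sqstm1 and -0.16 for Gabarapl1, each smaller than its standard error. All 10 genes passed the filter on low counts, and 0 of 10 were called at an adjusted p under 0.05 by edgeR's quasi-likelihood test with Benjamini-Hochberg adjustment over 13198 genes, beside 0% of all tested genes higher and 0% lower. At an unadjusted p under 0.05, 0 of the 10 genes passed, beside 3.24% of all tested genes, 1.43% higher and 1.8% lower. The control and knockout ranges overlapped for all 10, where 0.811% of all genes had ranges that did not, 0.439% higher and 0.371% lower in knockouts. Of the 10 log2 fold changes (knockout minus control), 6 lay above 0 and 4 below, with a median of 0.03 beside 0.00 over all tested genes. The median size of the change, without its sign, was 0.05 beside 0.11. DESeq2 called none of the 10 genes, beside 0% of its 18193 tested genes higher and 0.0165% lower.

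**Figure D1:**
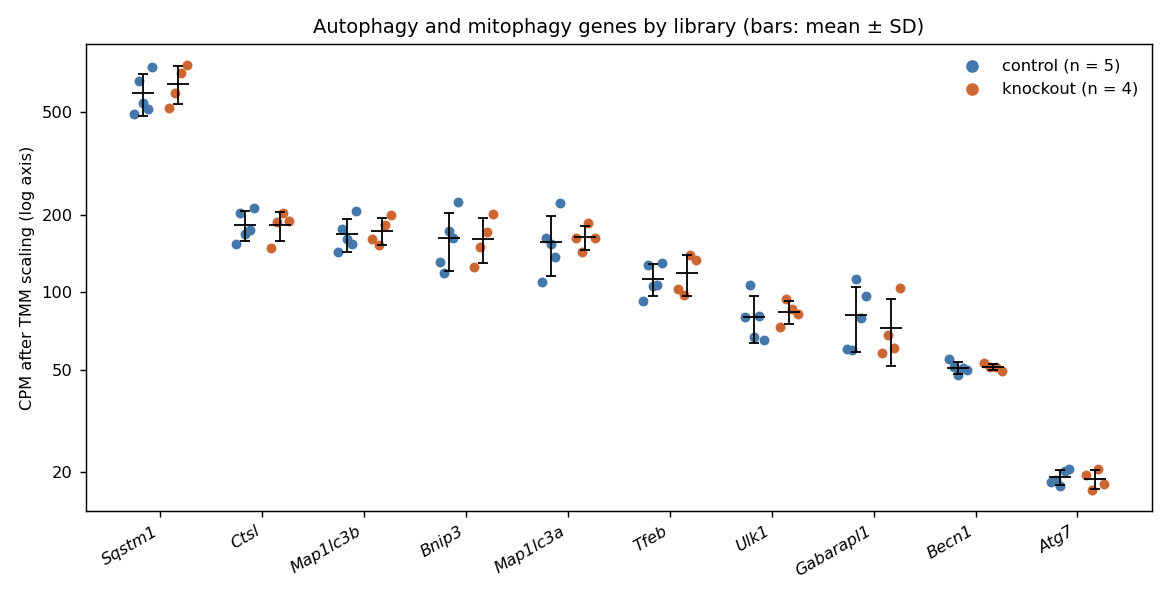
Level of each gene in every library, in CPM after TMM scaling on a log axis; points are libraries and bars are the mean ± SD of the 5 control (blue) and 4 knockout (orange) libraries. The groups overlap for each of the 10 genes, Becn1 and Atg7 vary least and Sqstm1 has the highest CPM.

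Levels are given as CPM after TMM scaling, which adjusts each library by a factor of its own for differences in composition. Ulk1, the kinase that starts autophagosome formation, had 80.4, 106.8, 66.8, 81.1 and 65.0 CPM in controls 1 to 5 and 73.5, 94.4, 85.7 and 82.3 CPM in knockouts 1 to 4. Control 2 was highest and control 5 lowest, and all 4 knockouts fell inside the control range. The means were 80.0 ± 16.7 (SD, n = 5) and 84.0 ± 8.64 CPM (SD, n = 4), a log2 fold change of 0.07 ± 0.14 (SE) with an adjusted p of 0.965 by edgeR. Becn1, the scaffold of the class III lipid kinase complex, had 54.8, 51.0, 47.5, 50.9 and 49.8 CPM in the controls and 52.9, 51.3, 51.3 and 49.5 CPM in the knockouts. All 9 libraries lay close together and the knockouts were inside the control range. The means were 50.8 ± 2.62 and 51.2 ± 1.36 CPM, with a log2 fold change of 0.01 ± 0.08 (SE) and an edgeR adjusted p of 0.990. The 95% interval of the Becn1 fold ran from 0.895 to 1.14, the narrowest of the 10.

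Atg7, the activating enzyme for both ubiquitin-like systems of autophagy, had 18.3, 18.6, 17.6, 20.1 and 20.6 CPM in the controls and 19.4, 17.1, 20.6 and 18.0 CPM in the knockouts. Control 5 and knockout 3 were highest and knockout 2 lowest, with the groups overlapping. Its means were 19.1 ± 1.26 and 18.8 ± 1.55 CPM, and its log2 fold change was -0.02 ± 0.10 (SE) with an edgeR adjusted p of 0.984. The interval of the Atg7 fold ran from 0.851 to 1.14.

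Map1lc3a, one of the LC3 proteins that coat the autophagosome membrane, had 109.9, 162.2, 154.3, 136.8 and 221.6 CPM in the controls and 162.3, 143.3, 185.1 and 162.2 CPM in the knockouts. Controls 1 and 5 were the lowest and highest of all 9 libraries, so the knockouts lay inside the control range. The means were 157 ± 41.3 and 163 ± 17.1 CPM, and the log2 fold change was 0.06 ± 0.17 (SE) with an edgeR adjusted p of 0.974. Map1lc3b, the LC3 form most used as an autophagosome marker, had 143.6, 176.4, 160.7, 153.6 and 207.1 CPM in the controls and 160.7, 152.6, 182.1 and 199.1 CPM in the knockouts. Control 5 was again highest and control 1 lowest, with the knockouts between them. Its means were 168 ± 24.8 and 174 ± 21.0 CPM, and its log2 fold change was 0.04 ± 0.12 (SE) with an edgeR adjusted p of 0.972. Gabarapl1, an ATG8 protein of the GABARAP subfamily, had 59.9, 59.7, 112.1, 79.2 and 96.8 CPM in the controls and 58.0, 68.4, 60.9 and 103.9 CPM in the knockouts. Controls 3 and 5 and knockout 4 were high, and knockouts 1 and 3 lay near controls 1 and 2, the lowest controls. The means were 81.5 ± 23.0 and 72.8 ± 21.2 CPM, with a log2 fold change of -0.16 ± 0.22 (SE) and an edgeR adjusted p of 0.965. The interval of the Gabarapl1 fold, 0.637 to 1.25, was the widest of the 10 on the log2 scale.

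Sqstm1, the cargo receptor also called p62, had 493.9, 661.0, 543.1, 515.7 and 749.4 CPM in the controls and 521.7, 593.6, 707.8 and 762.0 CPM in the knockouts. Knockout 4 was highest and control 1 lowest, and control 5 exceeded 3 of the 4 knockouts. The means were 593 ± 109 and 646 ± 109 CPM, and the log2 fold change of 0.13 ± 0.15 (SE) had an adjusted p of 0.965 and an unadjusted p of 0.424 by edgeR, the smallest of the 10. The interval of the Sqstm1 fold ran from 0.868 to 1.37. Bnip3, a receptor on the outer mitochondrial membrane that binds ATG8 proteins, had 130.6, 118.5, 173.2, 162.6 and 223.7 CPM in the controls and 124.7, 150.3, 170.9 and 200.4 CPM in the knockouts. Control 5 was highest and control 2 lowest, with the knockouts between them. Both means were 162 CPM, with SDs of 41.2 and 32.0, and the log2 fold change was 0.00 ± 0.19 (SE) with an edgeR adjusted p of 0.9996. The interval of the Bnip3 fold ran from 0.752 to 1.33.

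Ctsl, which degrades protein in the lysosome, had 153.9, 202.3, 168.4, 174.3 and 211.4 CPM in the controls and 148.2, 187.0, 203.3 and 189.6 CPM in the knockouts. Knockout 1 was lowest and control 5 highest, and the groups overlapped. The means were 182 ± 24.0 and 182 ± 23.7 CPM, a log2 fold change of 0.00 ± 0.12 (SE) with an edgeR adjusted p of 0.99998. Tfeb, the regulator of lysosomal genes, had 92.2, 128.0, 105.2, 106.8 and 129.4 CPM in the controls and 102.4, 97.4, 139.3 and 133.7 CPM in the knockouts. Knockouts 3 and 4 lay above all controls, and knockouts 1 and 2 lay below 4 of the 5 controls. The means were 112 ± 16.0 and 118 ± 21.3 CPM, with a log2 fold change of 0.07 ± 0.14 (SE) and an edgeR adjusted p of 0.965. The interval of the Tfeb fold ran from 0.851 to 1.30.

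**Figure D2:**
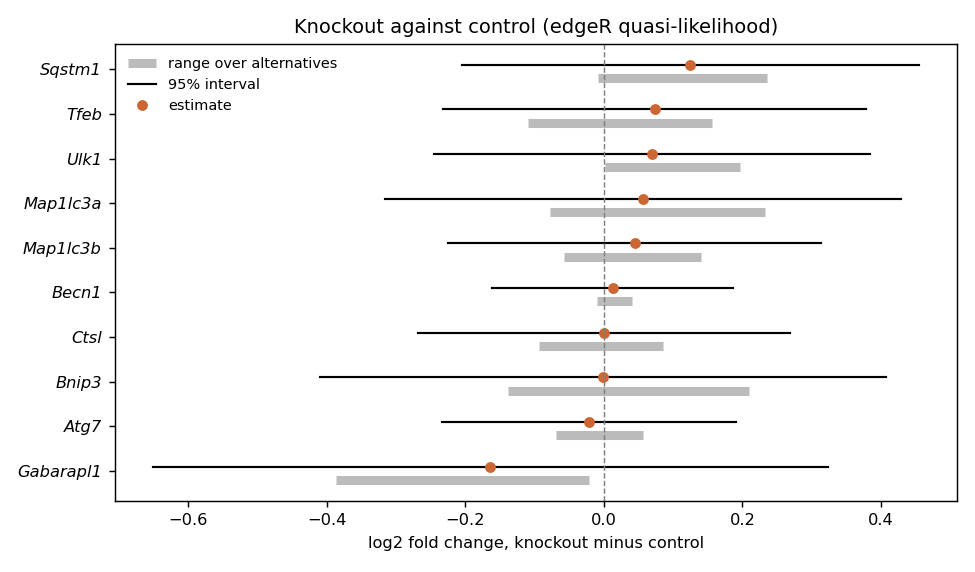
Log2 fold change of each gene, knockout minus control, with its 95% interval from edgeR (black line) and, in grey, the range of the estimate over the 24 alternative settings that give one. All intervals cross 0, and the estimates lie between -0.16 (Gabarapl1) and 0.13 (Sqstm1).

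The 10 genes differed more in how far they varied between libraries than in how far the groups differed. The coefficient of variation over the 9 libraries (the SD as a percentage of the mean) was 4.02% for Becn1 and 6.92% for Atg7. Among the 1742 genes within 0.5 log2 units of the abundance of Becn1, 1.21% varied less than it did, and for Atg7 the share was 7.64% of 2250 genes. At the other end stood Gabarapl1 with 27.5%, Bnip3 with 21.7% and Map1lc3a with 19.5%. Of genes of like abundance, 94.4% varied less than Gabarapl1, 89.0% less than Bnip3 and 83.9% less than Map1lc3a. The remaining 5 genes had coefficients from 12.3% (Ctsl) to 17.1% (Sqstm1). The highest library exceeded the lowest 2.02-fold for Map1lc3a, 1.93-fold for Gabarapl1, 1.89-fold for Bnip3 and 1.15-fold for Becn1.

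Levels were compared between genes only after division by transcript length, here the longest coding transcript of the gene in GENCODE M21. On this scale Sqstm1 was highest with a mean of 230.6 CPM per kilobase over the 9 libraries, followed by Map1lc3a (143.7), Bnip3 (92.1), Map1lc3b (64.8), Tfeb (49.1), Gabarapl1 (42.7), Ctsl (29.5), Ulk1 (15.7), Becn1 (11.7) and Atg7 (4.86). The ranges over libraries of neighbours in this order overlapped, except between Ctsl and Ulk1 and between Becn1 and Atg7. Within single libraries the neighbours kept this order in all 9, apart from Tfeb over Gabarapl1 in 7 and Gabarapl1 over Ctsl in 8. The middle of the order rested on the length used: with the median coding transcript, Ctsl (218.3) and Tfeb (208.6) stood next below Sqstm1, and Becn1 (70.3) stood above Ulk1 (18.6). Those median lengths were short, at 834 bases for Ctsl, 551 for Tfeb and 725 for Becn1. Their longest coding transcripts had 6168, 2342 and 4365 bases. Which transcripts are present in this muscle was not tested, so the order by median length may reflect short annotated transcripts. Sqstm1 stayed highest and Atg7 lowest with the median coding transcript and with the union of exons as well.

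Relatives of the 10 genes showed which family members made up most of the transcripts, in shares of CPM per kilobase. Bnip3 made up 85.8 to 90.4% of Bnip3 and its relative Bnip3l (also called Nix) together over the 9 libraries. Tfeb made up 82.5 to 88.6% of the sum of Tfeb, Tfe3 and Mitf, and 92.4 to 95.7% with the median transcript length. That median was 551 bases for Tfeb, beside 3076 for Tfe3 and 2128 for Mitf. The higher share follows from the short Tfeb length and is no separate evidence that Tfeb leads. Of the Ulk kinases, Ulk1 was the lesser, at 32.2 to 45.3% of Ulk1 and Ulk2, and 36.0 to 49.6% with the median transcript length. Among the 5 ATG8 transcripts of the list, Map1lc3a held 34.4 to 41.8% and Gabarap 28.5 to 33.3%, while Gabarapl2 held 2.66 to 3.37%. With the median transcript length Map1lc3a held 24.9 to 31.6% and Gabarap 26.1 to 32.7%, so their order was not settled. Among lysosomal proteases, Ctsl held 5.90 to 7.65% of Ctsl, Ctsb and Ctsd with the longest transcript but 30.8 to 37.1% with the median one. The median was 834 bases for Ctsl, beside 4743 for Ctsb and 2024 for Ctsd, whereas the longest Ctsl transcript had 6168. The relatives Bnip3l, Ulk2, Tfe3, Mitf, Ctsb and Ctsd were chosen after their values were seen, and none was called.

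Some of these counts can include reads of neighbouring or copied genes, or lack their own reads where both match. The strand setting of the counting is not given in the sources used here. Of the 50-base words in the transcripts of Bnip3, 47.2% also occurred in transcripts of other genes, chiefly the noncoding AC160336.1 and the antisense Gm45507. The share was 36.8% for Becn1, chiefly with the overlapping Cntd1, 26.3% for Ctsl, chiefly with the antisense Gm47123, 23.1% for Gabarapl1, with 1700101I11Rik, and 15.5% for Sqstm1, with Mrnip. It was 6.01% for Map1lc3b, chiefly with processed pseudogenes, 0.04% for Ulk1 and 0% for Map1lc3a, Atg7 and Tfeb. Values of Bnip3, Becn1, Ctsl, Gabarapl1 and Sqstm1 are therefore less certain, also in the comparison of levels per kilobase. The shares count words and not reads, so they do not measure how far, or in which direction, a value may be off.

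Several of the 10 genes varied together across the 9 libraries. Correlations were taken on log2(CPM + 0.5) over all 45 pairs, with two-sided exact permutation p-values adjusted over the 45 by Benjamini-Hochberg. Of the 45 pairs, 32 correlated positively, and 8 passed an adjusted p under 0.05 by Pearson's r and 0 by Spearman's rho. The share among pairs of all tested genes was not determined, so these counts do not set the 10 genes apart from others. The highest was Map1lc3b with Sqstm1, with r = 0.933 (unadjusted exact permutation p = 0.000378, adjusted 0.00849) and rho = 0.883 (exact permutation p = 0.00308, adjusted 0.0676). Without the 2 libraries farthest from the median of Map1lc3b, r was 0.873, and after centring each genotype it was 0.939. Map1lc3b and Tfeb had r = 0.898 (exact permutation p = 0.00168, adjusted 0.0189), rho = 0.883 and r = 0.959 without the 2 farthest libraries. The same set of genes gave r = 0.897 for Sqstm1 and Tfeb (adjusted exact permutation p = 0.0387), 0.864 for Sqstm1 and Ctsl (0.0387) and 0.861 for Map1lc3a and Map1lc3b (0.0189). Without the 2 farthest libraries, Sqstm1 and Tfeb had r = 0.871, Sqstm1 and Ctsl 0.902, and Map1lc3a and Map1lc3b 0.697.

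**Figure D3:**
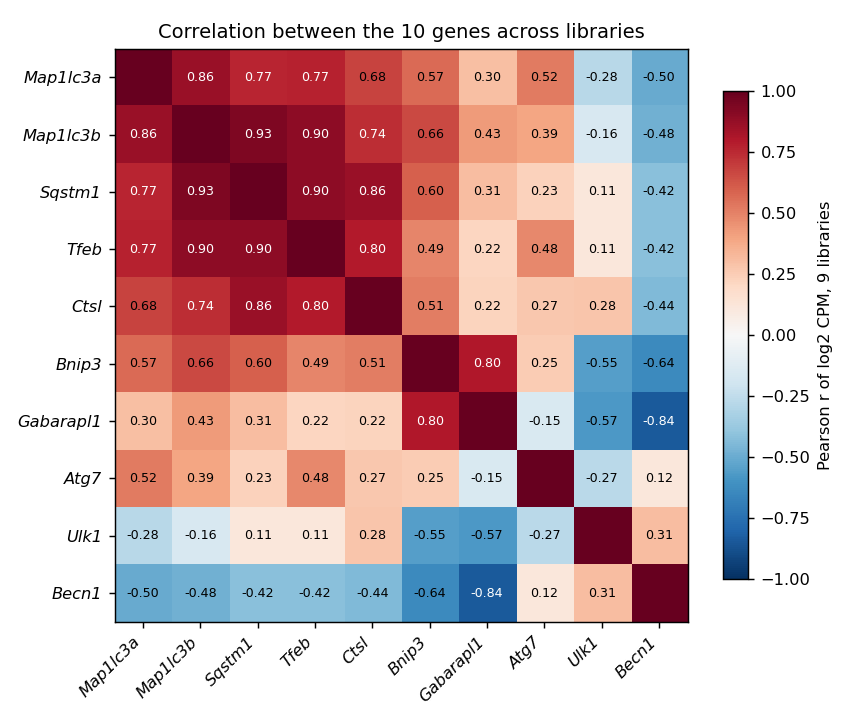
Pearson's r of log2(CPM + 0.5) between each pair of the 10 genes over the 9 libraries, red for positive and blue for negative. Map1lc3a, Map1lc3b, Sqstm1, Tfeb and Ctsl form a block of positive values at the upper left, and Becn1 and Gabarapl1 have the most negative value, -0.84.

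Gabarapl1 and Bnip3 formed a pair of their own, with r = 0.798 (exact permutation p = 0.0134, adjusted 0.0668) and rho = 0.867, which did not pass the threshold after adjustment. Both were high in control 5 and knockout 4 and low in control 2 and knockout 1. Gabarapl1 correlated weakly with the other ATG8 members, with r = 0.427 for Map1lc3b and 0.298 for Map1lc3a (adjusted exact permutation p-values above the threshold). Gabarapl1 and Becn1 had r = -0.841 (exact permutation p = 0.000369, adjusted 0.00849), but r was -0.673 without the 2 farthest libraries and -0.339 when CPM were scaled by library totals only. With that scaling 2 of the 45 pairs passed the threshold in place of 8. The 2 need not be among the 8, because other pairs moved away from 0. The strongest r with totals was -0.945 for Becn1 with Tfeb, which had -0.420 with TMM (adjusted exact permutation p = 0.444). Becn1 with Sqstm1 went from -0.417 with TMM to -0.758 with totals.

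The libraries also differed in the balance of short and long transcripts, and several of the 10 genes moved with it. For each library, the deviation of log2 CPM from the gene's mean was regressed on log2 transcript length over 12705 genes, and a negative slope means relatively more signal from short transcripts. The slope was 0.22 in control 1, -0.01 in control 2, 0.01 in control 3, 0.13 in control 4 and -0.18 in control 5. It was 0.05, 0.06, -0.19 and -0.09 in knockouts 1 to 4. Map1lc3a correlated with the slope at r = -0.926 (exact permutation p = 0.000314, adjusted over the 10 genes 0.00314) and rho = -0.867. The values were -0.899 for Map1lc3b, -0.888 for Sqstm1 and -0.882 for Tfeb, each with an adjusted exact permutation p of 0.00316, and -0.760 for Ctsl with 0.0382. Spearman's rho was -0.933, -0.883, -0.883 and -0.783 for the same genes in that order. Without the 2 libraries of most extreme slope, r was -0.898 for Map1lc3a, -0.947 for Map1lc3b, -0.877 for Sqstm1, -0.772 for Tfeb and -0.621 for Ctsl. Bnip3 (r = -0.638), Atg7 (-0.417), Gabarapl1 (-0.323), Ulk1 (0.157) and Becn1 (0.526) did not pass the threshold, with adjusted exact permutation p-values from 0.109 to 0.685. The share of all tested genes that correlate with the slope as closely was not determined.

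**Figure D4:**
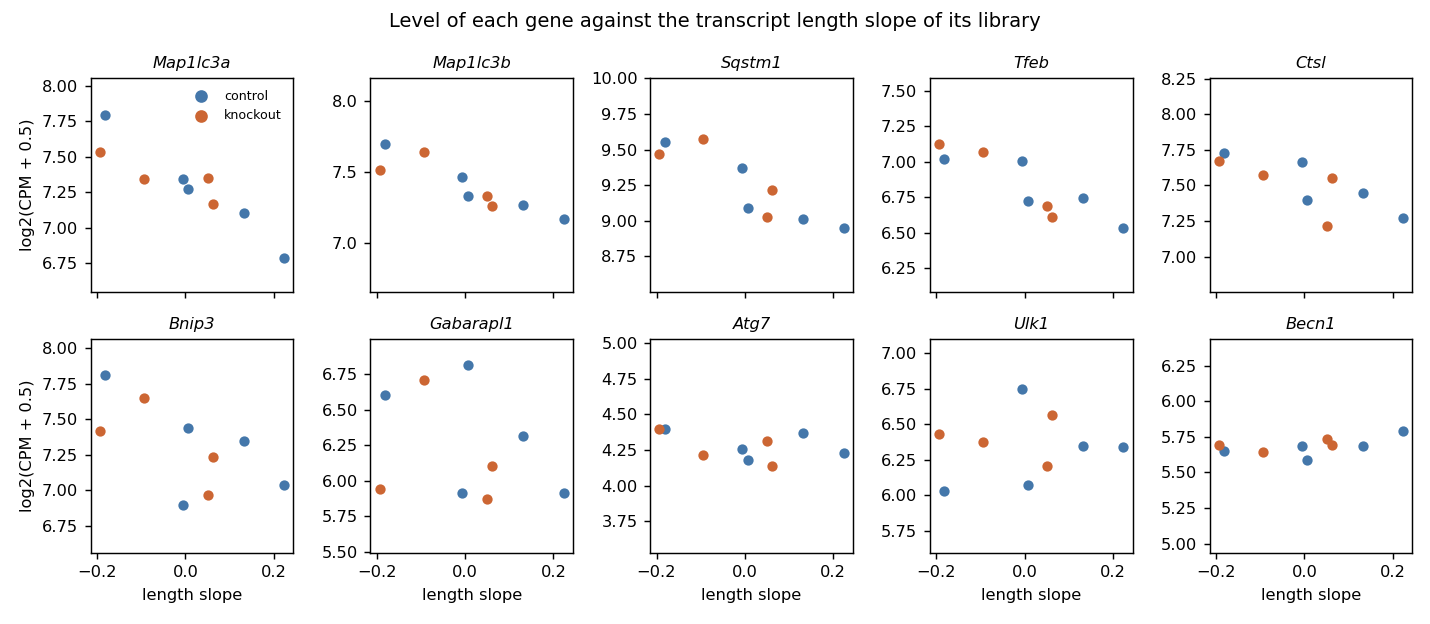
Level of each gene as log2(CPM + 0.5) against the transcript length slope of its library (log2 CPM per log2 transcript length); blue points are controls, orange points knockouts, and all panels span the same height. Map1lc3a, Map1lc3b, Sqstm1 and Tfeb fall as the slope rises, whereas Becn1 is nearly level.

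The 5 genes of the positive block are the 5 that correlated with the length slope past the threshold, and its part in their correlations was not tested. With control 5 and knockouts 3 and 4 left out, the libraries of clearly negative slope, r over the other 6 libraries was 0.771 for Map1lc3b with Sqstm1, 0.931 for Map1lc3b with Tfeb, 0.743 for Sqstm1 with Tfeb, 0.880 for Sqstm1 with Ctsl and 0.858 for Map1lc3a with Map1lc3b. It was lower for other pairs of the block, at 0.670 for Map1lc3a with Tfeb, 0.587 for Map1lc3a with Sqstm1, 0.674 for Ctsl with Tfeb, 0.554 for Map1lc3b with Ctsl and 0.334 for Map1lc3a with Ctsl. Gabarapl1 with Bnip3 had 0.900. Among these 6 libraries the slope still ran from -0.01 in control 2 to 0.22 in control 1. These values therefore cannot separate the slope from other shared variation. With the slope as a covariate in the edgeR fit, the log2 fold changes of Map1lc3a, Map1lc3b and Tfeb became -0.06, -0.05 and -0.05, that of Ctsl became -0.08 and that of Sqstm1 went from 0.13 to 0.007, and none of the 10 genes was called. Other cell types varied by library as well. The summed level of 12 adipocyte markers was 545 to 2425 CPM in controls, highest in controls 4 and 5, and 590 to 745 CPM in knockouts. Of 9 erythroid markers, 2 were tested, and Hba-a1, Hba-a2, Hbb-b1, Hbb-b2 and Hemgn were at 0 in all libraries. The erythroid sum was 54.0 to 77.4 CPM in controls and 68.1 to 367.9 CPM in knockouts. It was 367.9 CPM in knockout 3 and 139.1 CPM in knockout 4, while knockouts 1 and 2 lay inside the control range. The sum of 10 macrophage and neutrophil markers was 120 to 160 CPM in controls and 126 to 166 CPM in knockouts. None of the tested markers of these cell types was called. The part of these cell types in the levels of the 10 genes was not tested. Without controls 4 and 5 none of the 10 was called.

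By likeness of pattern, each of the 10 genes was compared with 9391 genes of at least 5 CPM over the 9 libraries, and the 2 genes of highest Pearson's r are given as a description. Map1lc3b was most like 1110049F12Rik (r = 0.988) and Snhg8 (0.985), and 60 genes exceeded an r of 0.95 with it. Tfeb was most like BC004004 (0.984) and Gstp1 (0.981), with 56 such genes. Map1lc3a was most like Tfpt (0.977) and Ppp1r14b (0.975), with 28 such genes. Sqstm1 was most like Utp3 and Psmd8 (0.980 each), with 24. Bnip3 was most like Sbds (0.986) and Srsf3 (0.985), with 10. Ctsl was most like Gtf2ird2 (0.960) and Htatip2 (0.956), with 3. Gabarapl1, Ulk1, Becn1 and Atg7 had 0 genes above 0.95. Their nearest were Rab14 (0.949) and Sox9 (0.945) for Gabarapl1, Zmym3 (0.944) and Tnk2 (0.936) for Ulk1, Wdr3 (0.914) and Iqsec1 (0.911) for Becn1, and 1810063B05Rik (0.904) and Aptx (0.902) for Atg7.

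The rest of the pathway gave the same count of calls. Over 9 lists from the Ulk1 complex to lysosomal enzymes and regulators, 114 genes were listed, all were found, and 113 were tested; Atg9b, with 2 to 22 counts, was under the filter. Of the 103 tested genes other than the 10 above, 0 were called by edgeR, beside 0% of all genes in either direction. At an unadjusted p under 0.05, 0 were higher and 1 was lower, beside 1.43% and 1.8% of all tested genes. The lower count was 0 without control 3 or knockout 3, 4 without control 2 and 2 without control 5, knockout 1 or knockout 4. It was 4 with limma-voom, and the replicate block, which drops control 5, gave 6 lower and 2 higher. The shares of all tested genes under these other settings were not determined, so these counts have no background beside them. The median log2 fold change of the 103 was -0.02, with 46 above 0 and 57 below, beside a median of 0.00 over all genes.

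**Figure D5:**
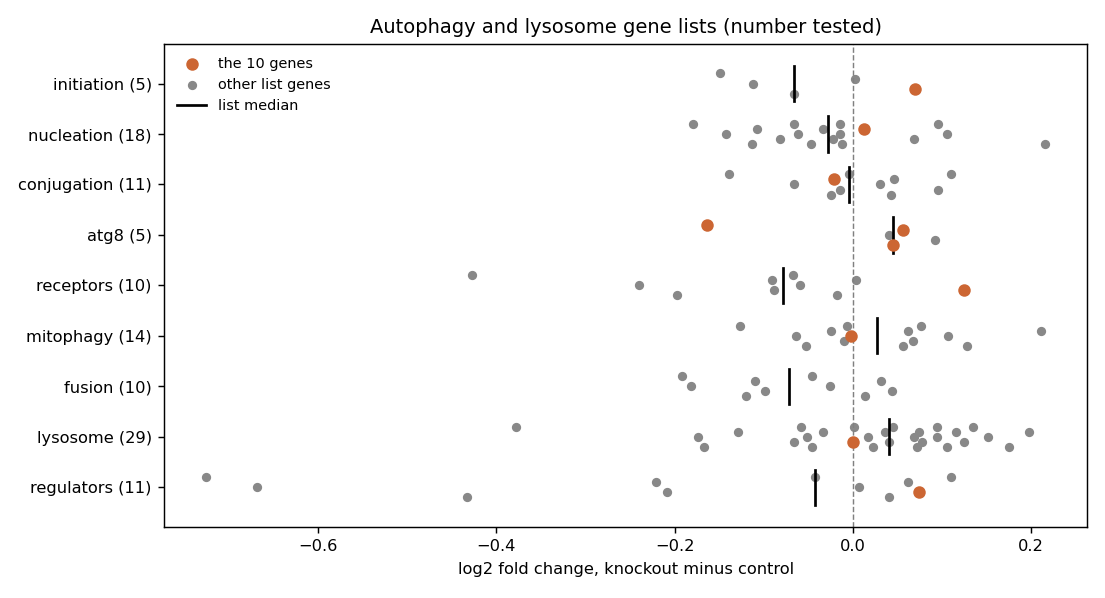
Log2 fold change, knockout minus control, of the 113 tested genes by list (number tested in brackets); orange points are the 10 genes, grey points the other list genes and bars the list medians. List medians lie between -0.08 and 0.05, and the points farthest to the left are Foxo3 (-0.73) and Foxo1 (-0.67).

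By role, 0 genes were called in each list, and the values named here did not pass the test after adjustment. In the Ulk1 complex, 2 of 5 genes lay above 0 with a list median of -0.07; the log2 fold change was -0.11 ± 0.09 (SE) for Atg13 and -0.15 ± 0.15 for the scaffold Rb1cc1. In nucleation, 5 of 18 lay above 0 with a median of -0.03. Pik3c3, the lipid kinase itself, had 21.2 ± 2.53 CPM in controls and 24.7 ± 2.83 CPM in knockouts (0.22 ± 0.12), and Uvrag, a Becn1 partner, had -0.18 ± 0.12. In conjugation, 5 of 11 lay above 0 with a median of 0.00. Atg12, a ubiquitin-like protein joined to Atg5, had 36.3, 35.5, 34.1, 35.6 and 38.0 CPM in controls and 31.4, 31.9, 34.0 and 33.0 CPM in knockouts. Atg12 was the single gene of the 103 whose groups did not overlap, beside 0.371% of all genes that lay apart and lower. Its lowest control, control 3, and its highest knockout, knockout 3, were almost equal, and its log2 fold change of -0.14 ± 0.08 (SE) had an edgeR adjusted p of 0.965. Atg5 had 0.11 ± 0.09.

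Among the ATG8 transcripts, 4 of 5 lay above 0 with a median of 0.04, and Gabarap and Gabarapl2 had log2 fold changes of 0.09 ± 0.15 and 0.04 ± 0.13. Among cargo receptors 2 of 10 lay above 0 with a median of -0.08. Fam134b (also called Retreg1), a receptor for endoplasmic reticulum, had -0.20 ± 0.16, and Wdfy3, an adaptor for protein aggregates, had -0.24 ± 0.20. The Wdfy3 estimate was -0.07 without control 1, its highest library, and -0.01 with 1 surrogate variable. The mitophagy list, with 7 of 14 above 0 and a median of 0.03, included the kinase Tbk1 at -0.13 ± 0.11 and the mitochondrial receptor Fkbp8 at 0.13 ± 0.12. In fusion, 3 of 10 lay above 0 with a median of -0.07; Vps39 of the tethering complex had -0.12 ± 0.11 and 5430411K18Rik (Epg5) -0.18 ± 0.17. In the lysosome list 19 of 29 lay above 0 with a median of 0.04. The hydrolase Glb1, with 34 to 102 counts by library, and the protease Ctso had -0.38 ± 0.20 and -0.17 ± 0.10. Of those above 0, the 2 of smallest unadjusted p by edgeR were Hexa at 0.18 ± 0.11 and Ctsz at 0.20 ± 0.13.

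Among regulators, 5 of 11 lay above 0 with a median of -0.04. Foxo1, a FoxO factor that induces autophagy genes in wasting muscle, had 45.7, 39.3, 101.7, 66.2 and 106.4 CPM in the controls and 41.4, 37.1, 42.8 and 59.6 CPM in the knockouts. Controls 3 and 5 stood far above the rest, and controls 1 and 2 lay among the knockouts. Its means were 71.9 ± 31.1 and 45.2 ± 9.87 CPM, a log2 fold change of -0.67 ± 0.29 (SE) with an unadjusted p of 0.0432 and an adjusted p of 0.965 by edgeR. The Foxo1 estimate ranged from -0.83 to -0.39 over the alternatives, and was -0.48 without control 5, where its adjusted p was 0.620. Foxo3 had 11.3 ± 4.43 and 6.79 ± 2.96 CPM and a log2 fold change of -0.73 ± 0.35 (SE), with an edgeR adjusted p of 0.965. Its lowest values were in control 5 and in knockouts 3 and 4, at 4.17 to 4.74 CPM, the libraries of clearly negative length slope. The Foxo3 estimate was -0.37 with that slope as a covariate and -0.33 with 1 surrogate variable, and reached -0.97 with the replicate block. Controls 3 and 5 were the highest controls and knockout 4 the highest knockout for both Foxo1 and Gabarapl1. Foxo1 was not among the 2 genes nearest to Gabarapl1 by likeness of pattern, and a link between them was not tested.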

How the data were processed

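Messenger RNA was measured by RNA sequencing in 9 libraries. Per the labels' protocols, RNA was amplified (NuGEN Ovation) ahead of Illumina library construction. The authors deposited unnormalised read counts, whole numbers by gene symbol. The submitters' processing notes name bcl2fastq 1.8.4, Bowtie 0.12.7, TopHat, HTSeq 0.6.1 and the mm9 build, while annotation and strand setting were not given in the sources used here. Total counts were 19522947 to 25608659 per library. A count of 0 allows up to 3 counts. This limit covers only counting error, because reads from amplified RNA are no independent molecules. No libraries within a group were duplicates (chi-square over its degrees of freedom was 16.7 to 92.2).

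Counts were analysed with edgeR 4.0.16 in R 4.3.3. The filter filterByExpr with a minimum count of 10 left 13198 genes, and TMM scaled the libraries. The robust quasi-likelihood F-test compared 4 knockout with 5 control libraries, with Benjamini-Hochberg adjustment over all tested genes and a threshold of 0.05. Each standard error was taken from the log2 fold change and the square root of F. The same steps were tested on simulated data. Correlations used scipy 1.17.1 and log2(CPM + 0.5), with all 362880 orders enumerated. Transcript lengths and shared 50-base words came from GENCODE M21, and names and promoters from RefSeq (GRCm38.p6), since the table gives no coordinates. Of 114 pathway symbols, 7 were matched by synonym.

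The members and lists were chosen with earlier results of these data known. Genes were named by rule: the 10 members, up to 2 genes of smallest unadjusted p per direction in each list, and the 2 nearest genes of each member. The text names the 2 of smallest p per list in either direction, a narrowing made after the values were seen. For the lysosome list it also names the 2 of smallest p above 0. Alternatives were RLE, upper quartile and totals scaling, DESeq2 1.42.0, limma-voom (limma 3.58.1), other filters, a non-robust fit, a threshold of 0.1, each library left out, a block on label number, 1 surrogate variable (sva 3.50.0), a length covariate, and 2 sets of libraries left out. The legacy quasi-likelihood fit, a fit without the block on the same 8 libraries and correlations without 3 libraries were chosen after seeing the data.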

Additional observations from a re-analysis of the deposited data

Results flagged for a closer look

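One of the 68 gene and group combinations examined held a library far from the others, where chance gives about 1 in 20. Gabarapl2, an ATG8 gene, had 22.5 CPM in control 5 and 16.2 to 17.9 CPM in the other 4 controls, a gap of 0.742 of the group's range. None of the 20 combinations of the 10 members and the groups held such a library. Knockout 3 had 22.5 CPM as well, and control 5 and knockout 3 are the libraries of most negative length slope; the part of that slope was not tested.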

How the results depend on the processing

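None of the 10 genes, and none of the other 103 list genes, was called under any of the 25 alternatives run, including DESeq2, limma-voom and a threshold of 0.1. Over all genes, DESeq2 called 3 lower genes and the replicate block 1, where edgeR called 0, and 0 were called when a library was left out. With CPM scaled by totals only, 2 pairs of the 10 genes passed the threshold in place of 8. The 2 need not be among the 8, since Becn1 with Tfeb went from r = -0.420 with TMM to -0.945 with totals. The cause was not tested.

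Gabarapl1 stayed below 0 and Ulk1 above 0 in all 24 alternatives that give a log2 fold change, from -0.386 to -0.021 and from 0.001 to 0.197. The signs of the other 8 turned under at least 1 alternative. RLE scaling gave 0 for Bnip3 and 0.002 for Ctsl, DESeq2 0.001 for Ctsl, and a minimum of 50 counts in 4 libraries 0 for Bnip3 and 0.001 for Ctsl. Upper quartile scaling gave 0.027 for Bnip3, 0.006 for Atg7 and 0.028 for Ctsl, and totals only gave -0.006 for Becn1 and -0.016 for Tfe3. Limma-voom gave -0.014 for Tfe3. A surrogate variable gave -0.078 for Map1lc3a, -0.058 for Map1lc3b, -0.009 for Sqstm1, -0.061 for Tfeb, -0.056 for Gabarap, -0.059 for Gabarapl2, -0.046 for Tfe3, -0.034 for Ctsb, 0.038 for Ulk2 and 0.005 for 5430411K18Rik. The length slope as a covariate gave -0.062 for Map1lc3a, -0.047 for Map1lc3b, -0.048 for Tfeb, -0.04 for Gabarap, -0.05 for Gabarapl2, -0.04 for Tfe3, -0.029 for Ctsb and 0.028 for Ulk2. Without controls 4 and 5, Bnip3 had 0.209, Atg7 0.057, Ctsl 0.07, Bnip3l 0.028 and Tfe3 -0.004. Without control 5 and knockouts 3 and 4, Map1lc3b had -0.014, Tfeb -0.109, Gabarapl2 -0.003 and Tfe3 -0.022.

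With single libraries left out, the log2 fold change ranged from -0.048 to 0.223 for Map1lc3a, -0.028 to 0.14 for Map1lc3b, -0.01 to 0.041 for Becn1, -0.123 to 0.153 for Bnip3, -0.069 to 0.023 for Atg7, -0.059 to 0.086 for Ctsl and -0.016 to 0.156 for Tfeb. It ranged from -0.012 to 0.227 for Gabarap, -0.058 to 0.134 for Gabarapl2, -0.12 to 0.013 for Ulk2, -0.055 to 0.04 for Tfe3 and -0.031 to 0.077 for Ctsb.

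The replicate block, which drops control 5, gave 0.149 for Bnip3, 0.016 for Atg7 and 0.065 for Ctsl; the same 8 libraries without the block gave 0.153, 0.017 and 0.07. Same-numbered libraries had deviations that correlated at 0.419, 0.037, 0.081 and -0.067, and not every library correlated best with its own number. The labels state no pairing, and these correlations cannot show whether same-numbered libraries were handled together. With 4 and 5 libraries and a biological coefficient of variation of 18.7%, the 95% intervals of the 10 genes spanned 0.35 to 0.97 on the log2 scale, wider than any of their estimates. The intervals do not show that the groups are alike.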
